A study of Mus musculus with 9 samples.

Results

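The endothelin system of the mouse retina was followed through 7 genes, namely the ligand genes Edn1, Edn2 and Edn3, the receptor genes Ednra and Ednrb, and the converting enzyme genes Ece1 and Ece2. Each was taken by its symbol from a deposited table of read counts for 55414 genes, and all 7 passed the filter on low counts that left 17272 genes for testing. The libraries were 9, in 3 groups of 3: retinas of light-damaged Balb/c mice with A74, retinas of light-damaged mice without it, and control retinas. All were Balb/c, an albino strain whose retina is sensitive to bright light. The labels give neither a dose, vehicle or full name for A74 nor the light exposure, age or sex, and do not say whether a replicate is 1 animal. Per its title the study is about blocking P2RX7, a channel opened by ATP. Without a statement on animals, the p-values below measure the spread between these libraries, which may in part be technical.

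Endothelins are short peptides cut from longer precursors. A furin-type protease first releases an inactive big endothelin, and an endothelin-converting enzyme then makes the active peptide. ET-1 and ET-2, the products of Edn1 and Edn2, bind the receptors ETA (Ednra) and ETB (Ednrb) about equally well, whereas ET-3, the product of Edn3, prefers ETB. In the retina ET-1 is best known as a vasoconstrictor made by endothelial cells. Edn2 is known as a gene that injured photoreceptors switch on, and ETB on Müller glia and astrocytes as one of the receptors through which these cells sense it. Because whole tissue was sequenced, fewer cells of a type and less RNA per cell cannot be told apart.

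The stretches that encode the active peptides are shown for the 3 ligand genes, which differed widely in level. They were found by searching the longest open reading frame of the GENCODE M21 transcripts (GRCm38) for the spacing of the 4 cysteines and the closing tryptophan that define an endothelin, and each gene had 1 match of 21 codons, or 63 bases. The stretch lies in exon 2 of Edn2 at chr4:120161951-120162013, of Edn1 at chr13:42303649-42303711 and of Edn3 at chr2:174761749-174761811, all on the plus strand. Capitals mark the bases that differ from Edn2.
Edn2: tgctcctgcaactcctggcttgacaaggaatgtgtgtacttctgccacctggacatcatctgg
Edn1: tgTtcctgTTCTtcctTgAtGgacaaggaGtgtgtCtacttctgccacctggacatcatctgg
Edn3: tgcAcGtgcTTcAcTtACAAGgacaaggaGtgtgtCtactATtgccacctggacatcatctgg
Edn1 differed from Edn2 at 10 of 63 bases and 7 of 21 codons, and Edn3 differed from Edn2 at 15 bases and 8 codons. A codon was counted if any of its bases differed, whether or not the amino acid changed. Over whole transcripts, the longest run of identical bases was 29 between Edn1 and Edn2, 21 between Edn3 and either of them, 15 between Ednra and Ednrb and 17 between Ece1 and Ece2.

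On GRCm38 the ligand genes lie at chr13:42301476-42307990 (Edn1, ENSMUSG00000021367), chr4:120161206-120167360 (Edn2, ENSMUSG00000028635) and chr2:174760619-174784042 (Edn3, ENSMUSG00000027524). The receptor genes lie at chr8:77663031-77724464 (Ednra, ENSMUSG00000031616) and chr14:103814625-103844402 (Ednrb, ENSMUSG00000022122), and the enzyme genes at chr4:137862237-137965229 (Ece1, ENSMUSG00000057530) and chr16:20629828-20646485 (Ece2, ENSMUSG00000022842). Antisense or overlapping genes in GENCODE M21 touch Edn1, Ednra, Ece1 and Ece2, and whether strand was used in counting is not given in the sources used here. The overlapping genes Gm13012, 4933431K23Rik and Gm49333 had 0 counts in all 9 libraries, and Gm47118, opposite Edn1, had at most 3 counts. Edn2, Edn3 and Ednrb overlap no other gene of that annotation.

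Library totals were 14787972 to 18740434 counts. The members of a group were not alike in X- and Y-linked transcripts or in 8 genes of anterior eye tissue, a list drawn up after these data had been seen. Y-linked counts were 4249 to 5832 in replicates 1 and 2 of light damage and of control and 0 in the other 5 libraries, including all 3 with A74. Xist had 17227 to 22253 counts in the 3 A74 libraries and control replicate 3, and at most 7 in the others, so light damage replicate 3 was low in both. Levels are given as CPM, the count scaled to library size with TMM factors. The sum over the anterior genes was 138 to 275 CPM in A74 replicate 1 and in replicates 1 and 2 of light damage and of control, and only 12.5 to 15.9 CPM in the remaining 4. A74 replicate 1 stood out in lens markers, at 764 CPM over 7 detected genes of 8 (Lim2 was at 0), with the other 8 libraries at 3.6 to 97.6 CPM. Pigment epithelium and melanocyte markers (8 genes) summed to 476 to 515 CPM with A74, 641 to 737 CPM in light damage and 450 to 548 CPM in control, ganglion cell markers (5 genes) to 555 to 566, 580 to 619 and 486 to 566 CPM in the same order, and horizontal cell markers (5 genes) to 277 to 283, 268 to 324 and 266 to 290 CPM. The pigment list includes Rlbp1, also a Müller glia marker, the only 1 of its 7 tested genes called in light damage against control. Of all genes, 25.8% were called there. The median log2 fold change of those 7 genes was 0.28 in that comparison. For A74 with light damage against control it was -1.1, with none called, so the sums do not speak for most of these genes. The part of these cell types in the results below was not tested.

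Levels were first set against each other per length, as CPM per kb of merged exons. In control retinas Ece1 stood at 9.77 ± 0.425, Edn2 at 3.32 ± 0.252, Ednrb at 2.89 ± 0.348, Edn1 at 0.792 ± 0.149, Ece2 at 0.681 ± 0.224, Edn3 at 0.279 ± 0.172 and Ednra at 0.24 ± 0.0517 CPM per kb (SD, n = 3). Edn2 and Ednrb had overlapping control ranges, as did Edn1 and Ece2, and Edn3 and Ednra. In light damage the order changed at the top, with Edn2 at 21.3 ± 2.1 CPM per kb against 10.5 ± 0.653 CPM per kb for Ece1 (SD, n = 3). With A74 and light damage Ece1, at 9.41 ± 0.123 CPM per kb, was again above Edn2, at 5.14 ± 1.05 CPM per kb (SD, n = 3).

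Among the ligands, Edn2 made up 77.6% to 89.8% of the summed CPM per kb of the 3 genes with A74, 91.6% to 94.6% in light damage and 71.9% to 81.3% in control. Edn2 was therefore the leading ligand transcript in every library, control included. Its light damage shares lay above all other libraries, while the A74 and control ranges overlapped.

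**Figure D1:**
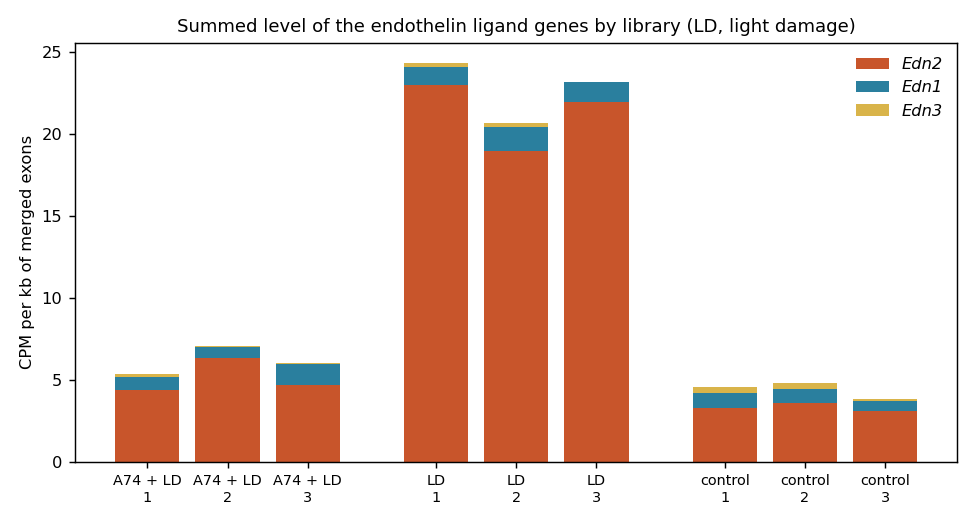
Stacked bars give the level of Edn2, Edn1 and Edn3 (CPM per kb of merged exons, from 0) in each of the 9 libraries, with the A74 group left, light damage in the middle and control right. Edn2 fills 91.6% to 94.6% of the light damage bars and 71.9% to 81.3% of the control bars.

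Light damage was compared with control to ask how the retina responds to light. Edn2 rose more than 6-fold, and it was the only one of the 7 genes called by edgeR's quasi-likelihood test after Benjamini-Hochberg adjustment over all genes. Edn1 and Ednrb were higher on average without passing that test, and the converting enzymes and Ednra moved by less than their intervals could tell from 0. Across the table the same test called 25.8% of genes, 13.0% of them as higher, so 1 called gene of 7, or 14.3%, was not more than the background. Groups did not overlap for 2 of the 7 genes, or 28.6%, against 40.6% of all genes. The median log2 fold change of the 7 genes was 0.39, against 0.01 over all genes tested.

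Edn2 had 33.6, 27.7 and 32.1 CPM in light damage replicates 1, 2 and 3, against 4.8, 5.25 and 4.52 CPM in control replicates 1, 2 and 3. The lowest light damage library stood far above the highest control library, and libraries within each group lay close together. The means were 31.1 ± 3.06 CPM in light damage and 4.86 ± 0.368 CPM in control (SD, n = 3 each), a fold change of 6.39 with a 95% interval of 5.19 to 7.87 (edgeR adjusted p = 1.5e-08). Of the 17272 genes tested, Edn2 had the smallest p in this comparison, at rank 1. Raw counts behind these values were 489 to 559 per light damage library and 67 to 87 per control library.

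Edn2 was also compared between libraries alike in Y-linked and anterior tissue transcripts, a split made after the data were seen. In the replicates rich in both, 2 light damage and 2 control libraries, its log2 fold change was 2.6 (SE 0.16), and in the remaining pair of libraries, low in both, it was 2.83, a value from 1 library a group with no replicate. A set of 7 rod genes, such as Gnat1 and Nrl, all detected, summed to 14000, 16800 and 19500 CPM in light damage replicates 1, 2 and 3, against 23500, 23000 and 21800 CPM in control replicates 1, 2 and 3. Every light damage library was below every control library in that sum. Singly, 4 of the 7 rod genes were called lower, where 12.8% of all genes fell. Their part in the Edn2 values was not tested.

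Edn1, the endothelial ligand, had 2.41, 3.17 and 2.56 CPM in light damage replicates 1, 2 and 3, against 1.98, 1.75 and 1.35 CPM in control replicates 1, 2 and 3. All light damage libraries were above all control libraries, on 39 to 61 counts against 20 to 29 counts. The fold change was 1.61 with a 95% interval of 1.06 to 2.43, which did not pass after adjustment (edgeR adjusted p = 0.087). The 8 endothelial markers, such as Pecam1 and Cdh5, were all detected and summed to 379 to 503 CPM in light damage and 248 to 271 CPM in control. Singly, 2 of the 8 were called higher, Kdr and Erg, where 13.0% of all genes rose. The other 6, Pecam1 and Cdh5 among them, were not called, and the log2 fold changes of the 8 ran from -0.17 to 0.95. The part of these cells in the Edn1 values was not tested.

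Edn3, the ligand with a preference for ETB, was sparse. It had 1.02, 1.09 and 0.197 CPM in light damage replicates 1, 2 and 3, against 1.48, 1.63 and 0.337 CPM in control replicates 1, 2 and 3. Replicate 3 was low in both groups and the groups overlapped. The log2 fold change of -0.55 had a 95% interval of -2 to 0.91 (edgeR adjusted p = 0.598). The SE was 0.66, and 0.34 with the anterior tissue split as a term.

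Ednrb, the receptor gene of Müller glia and astrocytes, had 18.6, 19.1 and 11.9 CPM in light damage replicates 1, 2 and 3, against 10.7, 13.6 and 12.7 CPM in control replicates 1, 2 and 3. Light damage replicates 1 and 2 were above all control libraries, whereas replicate 3 lay within the control range. The fold change of 1.34 had a 95% interval of 1.06 to 1.71 (edgeR adjusted p = 0.067). Without light damage replicate 3 the log2 fold change was 0.62 and Ednrb was called (edgeR adjusted p = 0.00105), with a log2 fold change of 0.43 in all libraries.

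The library in which Ednrb did not exceed control was one of the highest in Edn2, at 32.1 CPM. Within the replicates rich in Y-linked and anterior tissue transcripts the log2 fold change of Ednrb was 0.63 (SE 0.14). That set was chosen after the data were seen. Like the fit without light damage replicate 3, it leaves out the library in which Ednrb was not raised, so it is no separate support for a rise. The other pair, 1 library a group with no replicate, is light damage replicate 3 and control replicate 3 and gave -0.09. The difference between the sets, with the spread of that pair borrowed from the other libraries, was 0.72 and did not pass (edgeR adjusted p = 0.187). Müller glia markers, all 8 of them detected, summed to 5730, 6130 and 5580 CPM in light damage replicates 1, 2 and 3, against 5050, 5070 and 4400 CPM in control. The 4 astrocyte markers summed to 70.5, 64.6 and 52.2 CPM in light damage and 40.6, 38.1 and 34.2 CPM in control. Light damage replicate 3 was the lowest of its group in both sums, and above every control library in both. Singly, 7 of the 8 Müller glia markers and 2 of the 4 astrocyte markers were called higher, where 13.0% of all genes rose. The part of cell numbers in the Ednrb values was not tested.

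Ednra, the vascular smooth muscle receptor gene, had 1.5, 1.46 and 1.64 CPM in light damage replicates 1, 2 and 3, against 1.06, 1.27 and 1.62 CPM in control replicates 1, 2 and 3. The groups overlapped, and the fold change of 1.16 had a 95% interval of 0.755 to 1.79 (edgeR adjusted p = 0.639). The 8 pericyte and smooth muscle markers, all detected, summed to 122 to 134 CPM in light damage and 114 to 124 CPM in control. Per kb, Ednrb exceeded Ednra 9.31-fold to 16.8-fold across light damage libraries and 10.1-fold to 13.7-fold across control libraries.

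Ece1, the main converting enzyme gene, had 59.4, 54.9 and 52.6 CPM in light damage replicates 1, 2 and 3, against 51.7, 49.6 and 54.1 CPM in control replicates 1, 2 and 3. With 732 to 1055 counts per library in these groups it was the most precisely measured of the genes, and its fold change of 1.07 had a 95% interval of 0.974 to 1.18 (edgeR adjusted p = 0.284). Ece2, a related enzyme of neurons, had 4.33, 5.25 and 4 CPM in light damage and 3.25, 2.47 and 4.72 CPM in control, replicates 1 to 3 in each. Its groups overlapped, and its fold change was 1.31 with a 95% interval of 0.914 to 1.87 (edgeR adjusted p = 0.269).

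**Figure D2:**
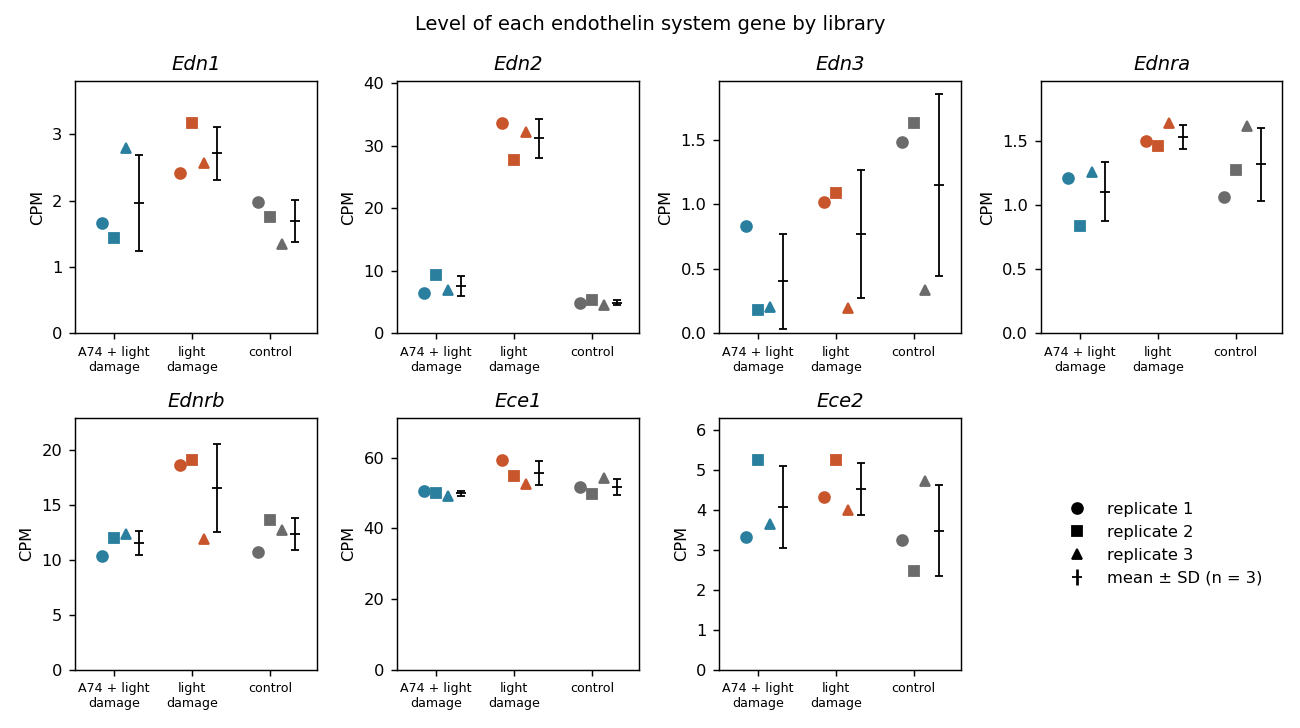
Each panel gives the CPM of 1 gene in every library on an axis from 0, with A74 and light damage left, light damage in the middle and control right, marker shapes for the replicate number and a bar for mean ± SD (n = 3). The 3 light damage points of Edn2, at 27.7 to 33.6 CPM, stand apart from the other 6 libraries, and Ednrb in light damage replicate 3, at 11.9 CPM, lies with the other groups.

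Retinas with A74 and light damage were then compared with light damage alone. Edn2 was about 4-fold lower with A74, and Ednrb was lower too, so that 2 of the 7 genes, or 28.6%, were called by edgeR, against 18.3% of all genes, with 9.07% called higher and 9.19% called lower. All 7 log2 fold changes were negative, with a median of -0.48 against 0.00 over all genes, but 5 of them did not pass. Groups did not overlap for 3 of the 7 genes, or 42.9%, all lower, against 35.2% of all genes, 17.7% being lower. This comparison shares its light damage libraries with the one above, so a library that was high there also enters here.

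Edn2 had 6.44, 9.27 and 6.84 CPM in A74 replicates 1, 2 and 3, against 33.6, 27.7 and 32.1 CPM in light damage replicates 1, 2 and 3. Every A74 library was below every light damage library. The mean was 7.52 ± 1.53 CPM with A74 and 31.1 ± 3.06 CPM in light damage (SD, n = 3 each), a ratio of 0.242 with a 95% interval of 0.199 to 0.295 (edgeR adjusted p = 4.21e-07). Edn2 was at rank 1 by p here too. All A74 libraries lacked Y-linked counts and 2 light damage libraries had them. With Y-linked counts as a term the log2 fold change was -2.04 (SE 0.16, edgeR adjusted p = 7.39e-06), and -2.05 without the term. In light damage only replicate 3 was coded like the A74 libraries in that fit. Its Xist count was 1, against 17227 to 18172 with A74, so it was not like them in Xist. The part of X- and Y-linked differences was not tested beyond this fit. The 7 rod genes summed to 21800, 22000 and 22500 CPM in A74 replicates 1, 2 and 3, against 14000, 16800 and 19500 CPM in light damage. Singly, 5 of these rod genes were called higher, where 9.07% of all genes rose. Their part here was not tested either.

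Ednrb had 10.3, 12 and 12.3 CPM in A74 replicates 1, 2 and 3, against 18.6, 19.1 and 11.9 CPM in light damage replicates 1, 2 and 3. The groups overlapped through light damage replicate 3. The ratio was 0.695 with a 95% interval of 0.547 to 0.884 (edgeR adjusted p = 0.0365). This call was not stable. It was lost without A74 replicate 1 (edgeR adjusted p = 0.118), A74 replicate 2 (edgeR adjusted p = 0.0852), A74 replicate 3 (edgeR adjusted p = 0.0773), light damage replicate 1 (edgeR adjusted p = 0.133), light damage replicate 2 (edgeR adjusted p = 0.153) or control replicate 3 (edgeR adjusted p = 0.0531), whose log2 fold changes lay between -0.57 and -0.41. With Y-linked counts as a term the log2 fold change was -0.30 (edgeR adjusted p = 0.393). Among libraries rich in anterior tissue transcripts, 1 with A74 and 2 with light damage, it was -0.88, and among the others, 2 with A74 and 1 with light damage, 0.03. The difference between these sets, with the spread of single libraries borrowed from the rest, was -0.91 and did not pass (edgeR adjusted p = 0.0705).

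Edn1 had 1.66, 1.44 and 2.79 CPM in A74 replicates 1, 2 and 3, against 2.41, 3.17 and 2.56 CPM in light damage. A74 replicate 3 lay within the light damage range, and the ratio of 0.718 had a 95% interval of 0.478 to 1.08 (edgeR adjusted p = 0.249). Ednra had 1.21, 0.837 and 1.26 CPM with A74, against 1.5, 1.46 and 1.64 CPM in light damage, with no overlap, on 14 to 28 counts per library in both groups. Its ratio was 0.72 with a 95% interval of 0.464 to 1.12 (edgeR adjusted p = 0.292).

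Ece1 had 50.5, 49.9 and 49.2 CPM with A74, against 59.4, 54.9 and 52.6 CPM in light damage, again with no overlap. The ratio of 0.897 had a 95% interval of 0.814 to 0.988 (edgeR adjusted p = 0.11), and it was called without light damage replicate 3, where the edgeR adjusted p was 0.0474 and the difference -0.19. Ece2 had 3.32, 5.26 and 3.65 CPM with A74 and 4.33, 5.25 and 4 CPM in light damage, a ratio of 0.9 with a 95% interval of 0.633 to 1.28 (edgeR adjusted p = 0.706). Edn3 had 0.829, 0.179 and 0.199 CPM with A74 and 1.02, 1.09 and 0.197 CPM in light damage, overlapping, with a log2 fold change of -0.96 and a 95% interval of -2.67 to 0.74 (edgeR adjusted p = 0.428).

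A74 with light damage was last compared with control, to see which endothelin genes still stood apart. None of the 7 genes was called by edgeR, against 0.892% of all genes, 0.591% being higher and 0.301% lower. At an unadjusted edgeR p under 0.05 there was 1, Edn2. Of the 17272 genes tested, at least 2658 were also under 0.05, the gene at rank 2658 having an edgeR p of 0.0478. So 1 gene of 7 was not more than the background at that level. The DESeq2 test on the same counts called 1 of the 7, also Edn2, and 322 genes in all. The median log2 fold change of the 7 genes was -0.06, against 0.00 over all genes.

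Edn2 had 6.44, 9.27 and 6.84 CPM in A74 replicates 1, 2 and 3, against 4.8, 5.25 and 4.52 CPM in control replicates 1, 2 and 3. All A74 libraries were above all control libraries, which held for 1 of the 7 genes, or 14.3%, and for 11.8% of all genes. Groups did not overlap in either direction for 22.8% of all genes. The fold change was 1.55 with a 95% interval of 1.24 to 1.93 and missed the threshold (edgeR adjusted p = 0.0597). It passed under 7 of 17 alternative analyses, among them the DESeq2 test (DESeq2 adjusted p = 0.0289) and the edgeR fits without A74 replicate 1 (edgeR adjusted p = 0.0325), light damage replicate 1 (edgeR adjusted p = 0.0407) or light damage replicate 3 (edgeR adjusted p = 0.0355). Over all 17 the log2 fold change stayed between 0.45 and 0.73.

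The other genes had wider or smaller differences. The fold change was 1.15 for Edn1 (95% interval 0.75 to 1.77), 0.836 for Ednra (0.532 to 1.31), 0.934 for Ednrb (0.731 to 1.19), 0.962 for Ece1 (0.873 to 1.06) and 1.18 for Ece2 (0.819 to 1.69). The interval was narrowest for Ece1 among these 5 genes.

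Edn3 had 0.829, 0.179 and 0.199 CPM in A74 replicates 1, 2 and 3, against 1.48, 1.63 and 0.337 CPM in control. Its log2 fold change of -1.51 had a 95% interval of -3.15 to 0.13 (edgeR adjusted p = 0.358). Over the whole series its counts went with the anterior tissue genes. The 5 libraries rich in those genes had 13 to 27 counts of Edn3, and the other 4 had 3 to 5 counts. With that split as a term, the log2 fold change of Edn3 was -0.86 for A74 with light damage against control, -0.28 against light damage alone and -0.58 for light damage against control (edgeR adjusted p = 0.31, 0.71 and 0.229, in that order). With Y-linked counts as a term those with A74 turned positive, at 0.32 and 0.90. No direction can be given for Edn3 with A74. For light damage against control its log2 fold change was negative in all 17 alternative analyses, at -0.97 to -0.12, and called in none. The part of anterior tissue RNA in its counts was not tested beyond these fits.

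**Figure D3:**
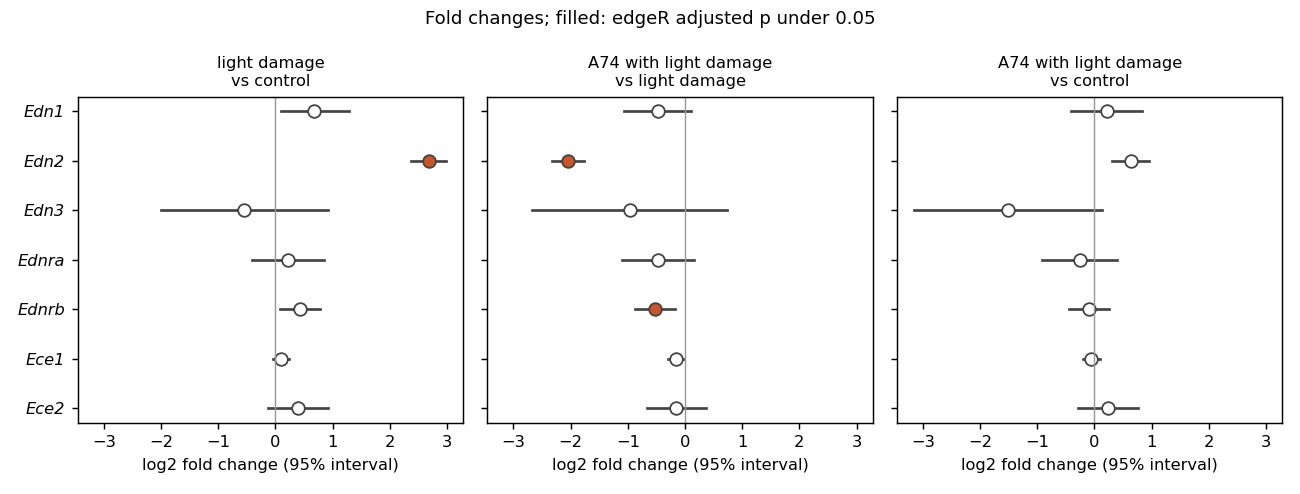
Points give the log2 fold change of each gene with its 95% interval in the 3 comparisons, filled where the edgeR adjusted p was under 0.05. Edn2 is filled at 2.68 and -2.05 and open at 0.63, and the Edn3 intervals are the widest in each panel.

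**Figure D4:**
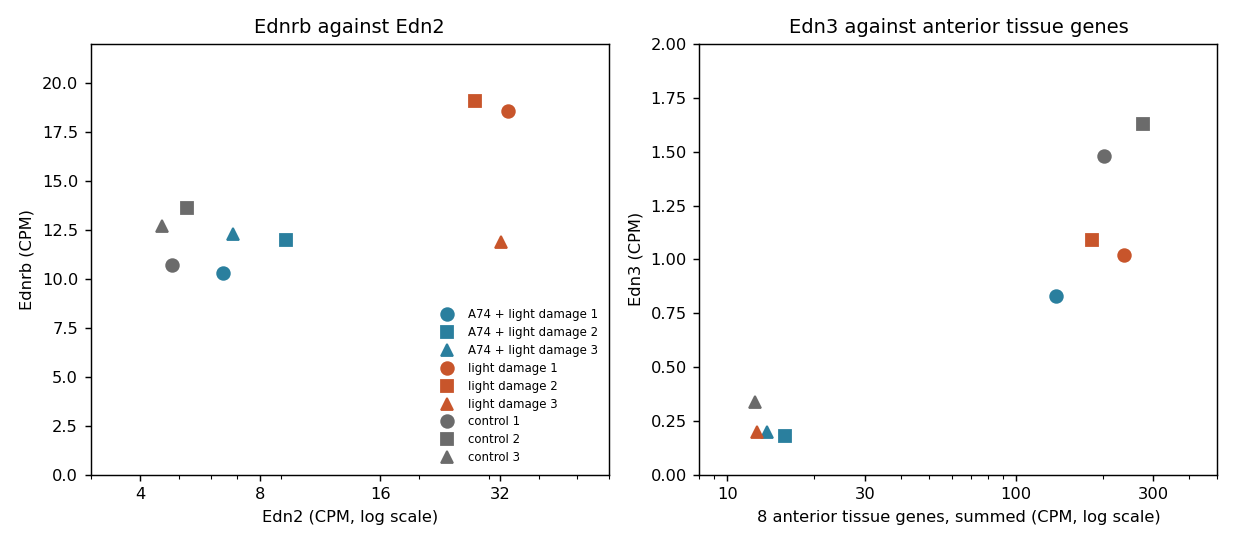
The left panel sets Ednrb against Edn2 (CPM, Edn2 on a log axis) and the right panel Edn3 against the sum of 8 anterior tissue genes (CPM, log axis), 1 point per library, coloured by group and shaped by replicate. Light damage replicate 3 combines 32.1 CPM of Edn2 with 11.9 CPM of Ednrb, and Edn3 is at or above 0.829 CPM in the 5 libraries rich in anterior tissue genes and at or below 0.337 CPM in the other 4.

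The genes with the pattern most like that of Edn2 were sought by the correlation of log2 CPM over the 9 libraries, among 13709 genes with at least 1 CPM in a group. Those 9 points fall into the 3 groups, so this describes shared differences between groups and carries no test. The closest was Mt1, a metallothionein gene (Pearson r = 0.988), with 18.6, 26.1 and 24.8 CPM with A74, 50.2, 50.6 and 51.1 CPM in light damage and 17.5, 17.1 and 17.4 CPM in control. Within groups, A74 replicate 2 was the highest with A74 for both Mt1 and Edn2, but the orders differed elsewhere. Control replicate 2 was the highest control for Edn2 (5.25 CPM) and the lowest for Mt1. Light damage replicate 1 was the highest of its group for Edn2 (33.6 CPM) and the lowest for Mt1. C1qa, a complement gene of microglia, followed (r = 0.981), and then Vps35l, Wdr1 and Copb2 (r = 0.98 each), which have roles in endosomal sorting, actin turnover and vesicle coats. The correlation ignores the size of a change. In light damage against control the fold change was 1.13 for Vps35l, 1.16 for Wdr1 and 1.22 for Copb2, against 6.39 for Edn2. For A74 against light damage Vps35l was not called (edgeR adjusted p = 0.0796). For Ednrb the closest were Ralyl (r = 0.981), Ckap4 (r = 0.974), Htra3 (r = 0.971), Ifi203 (r = 0.967) and Nr2f1 (r = 0.963). Ralyl had 40.7, 41.4 and 34 CPM in light damage and 32.6, 35.3 and 34 CPM in control, with light damage replicate 3 within the control range. Ralyl was picked for its likeness to Ednrb over these same libraries, so this is no separate observation.

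The pathway around the endothelins was described with 4 lists. Of the genes that process or break down the peptides, 8 of 11 were measured, and 2 rose in light damage against control, none fell, where 13.0% of all genes rose and 12.8% fell. The list median was -0.03 on the log2 scale, against 0.01 over all genes. They were Ctsa, the gene of cathepsin A (0.43, edgeR adjusted p = 0.000666), and Pcsk5, a furin-related convertase gene (0.61, edgeR adjusted p = 0.00588). With A74 against light damage 2 fell and 1 rose, where 9.19% of all genes fell and 9.07% rose. Ctsa fell by 0.37 and Pcsk5 fell by 0.51, while Pcsk7, a convertase gene, rose by 0.40 (edgeR adjusted p = 0.00323, 0.0229 and 0.00358, in that order). With Y-linked counts as a term none of these 3 passed. Pcsk5 was also lost without A74 replicate 2 (edgeR adjusted p = 0.0844), A74 replicate 3 (edgeR adjusted p = 0.0873), light damage replicate 1 (edgeR adjusted p = 0.0648) or light damage replicate 2 (edgeR adjusted p = 0.069).

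Of the genes that carry the receptor signal, such as G proteins, phospholipases and protein kinase C, 23 of 24 were measured. In light damage 7 rose and 1 fell against control, with a median of 0.13, where 13.0% of all genes rose and 12.8% fell. Gnai2, an inhibitory G protein gene, rose by 0.63 (edgeR adjusted p = 2.53e-05), Rgs2, a gene whose product shuts off Gq, by 0.40 (edgeR adjusted p = 0.000643) and Prkcd, a protein kinase C gene, by 0.41 (edgeR adjusted p = 0.0141). With A74 against light damage 9 fell and none rose, with a median of -0.13, where 9.19% of all genes fell and 9.07% rose. The log2 fold change was -0.67 for Gnai2, -0.29 for Rgs2 and -0.50 for Prkcd. With Y-linked counts as a term Rgs2 (edgeR adjusted p = 0.13) and Prkcd (edgeR adjusted p = 0.115) did not pass there. The call of Prkcd against control was lost without light damage replicate 1 (edgeR adjusted p = 0.0714), control replicate 2 (edgeR adjusted p = 0.0504) or control replicate 3 (edgeR adjusted p = 0.0507). Microglia markers, which include none of these genes, summed to 52.5 to 72.1 CPM with A74, 123 to 182 CPM in light damage and 50.4 to 57.8 CPM in control. Their part in these changes was not tested.

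Of other vasoactive peptide and nitric oxide genes, 14 of 19 were measured and 3 were called in light damage against control, 2 higher and 1 lower, where 25.8% of all genes were called. Agt, the angiotensin precursor gene, rose by 1.61 (edgeR adjusted p = 0.000319), Ramp2, a subunit of the adrenomedullin receptor, by 0.81 (edgeR adjusted p = 0.0263), and Apln, the apelin gene, fell by 0.57 (edgeR adjusted p = 0.042). The list median was 0.03. Agt alone was called with A74 against light damage, where 18.3% of all genes were. It fell by 1.30 (edgeR adjusted p = 0.00216), and it missed the threshold with Y-linked counts as a term (-0.95, edgeR adjusted p = 0.0748). With the replicate numbers as a block, Apln was not called for light damage against control (edgeR adjusted p = 0.0527). Whether these numbers mark pairs is not settled. Ramp2 kept its call against control in 12 and Apln in 6 of 17 alternative analyses. Leaving out any 1 library of light damage or control ended the call of both, except that Ramp2 held without light damage replicate 3, and leaving out A74 replicate 2 ended that of Apln. The edgeR adjusted p without those libraries lay between 0.0517 and 0.128.

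The last list holds genes of the photoreceptor to Müller glia stress response, some of which were already known to rise in these data when it was written. Of 14 genes 12 were measured, 10 rose and 1 fell in light damage against control, with a median of 1.69, where 13.0% of all genes rose and 12.8% fell. With A74 against light damage 10 fell and 1 rose, with a median of -1.56, where 9.19% of all genes fell and 9.07% rose. Cebpd, a transcription factor gene, had a log2 fold change of 2.63 and -2.31 in those comparisons, Osmr, the oncostatin M receptor gene, 1.77 and -1.53, and Bcl3, a regulator of NF-kB, 3.10 and -3.65. The gene against the trend was Lifr, the receptor gene of LIF, at -0.38 and 0.28, which was singled out after its values were seen. None of the 4 lists had a gene called for A74 with light damage against control, where 0.892% of all genes were called. At so small a share, the lack of calls says little about the lists.

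**Figure D5:**
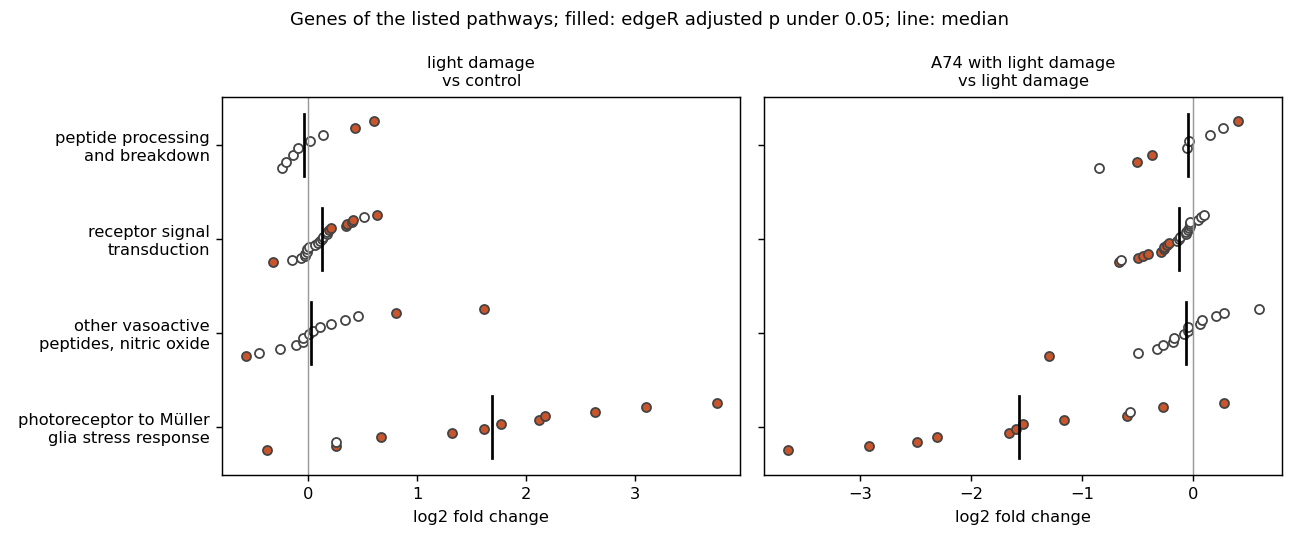
Each point is the log2 fold change of 1 measured gene of the 4 lists in light damage against control (left) and A74 with light damage against light damage (right), filled where the edgeR adjusted p was under 0.05, with a line at the list median. The stress response list has medians of 1.69 and -1.56, and the other 3 lists lie between -0.13 and 0.13.

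Promoter sequence was set beside the 2 genes that were called, Edn2 and Ednrb. The windows are the 250 bases before the annotated start, from RefSeq on GRCm38.p6, at chr4:120160956-120161205 on the plus strand for Edn2 and chr14:103843702-103843951 on the minus strand for Ednrb. The Ednrb window lies inside the GENCODE M21 gene at chr14:103814625-103844402, so RefSeq and GENCODE place its start differently. Capitals mark matches to any of 5 motifs searched on both strands.
Edn2: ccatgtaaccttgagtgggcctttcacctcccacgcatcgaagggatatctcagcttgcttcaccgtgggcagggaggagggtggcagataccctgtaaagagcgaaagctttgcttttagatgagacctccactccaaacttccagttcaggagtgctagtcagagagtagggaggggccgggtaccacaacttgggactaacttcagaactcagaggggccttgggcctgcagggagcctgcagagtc
Ednrb: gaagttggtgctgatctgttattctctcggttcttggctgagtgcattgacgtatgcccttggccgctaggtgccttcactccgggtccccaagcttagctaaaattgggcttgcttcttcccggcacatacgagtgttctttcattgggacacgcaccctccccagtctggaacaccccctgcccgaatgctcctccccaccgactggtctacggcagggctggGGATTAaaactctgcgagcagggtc
The motifs were AP-1 (TGANTCA, in 6.75% of all 32851 windows of this length), STAT (TTCNNNGAA, 7.02%), the hypoxia response core (ACGTG, 16.6%), CRX (TAATCC, 6.25%) and the TATA box (TATAAA, 12.4%). The Edn2 window held none of these letters. The Ednrb window held 1 match, to the CRX letters on the opposite strand, starting 25 bases before the RefSeq start and within the GENCODE gene. A match is a description of letters only, and no binding was measured.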

How the data were processed

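RNA from retina was sequenced in 9 libraries, and the authors deposited 1 table of whole-number read counts per gene, not normalised as judged from totals of 14787972 to 18740434. Per the submitters' processing notes, which state no roles, the tools and build include RSEM 1.3.1, Bowtie2, DESeq2 1.4.5 and GRCm39. Whether counts are rounded RSEM estimates, which would divide reads shared by similar genes, is not given in the sources used here. The reference annotation was GRCm38, so no count was tied to a coordinate, and GENCODE M21 gave only exon lengths, overlaps and sequences.

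Groups and replicate numbers came from the titles. Genes were kept by filterByExpr with a minimum count of 10, scaled with TMM factors and put through edgeR 4.0.16 under R 4.3.3 (robust quasi-likelihood, 1 fit of 9 libraries, no covariates), with Benjamini-Hochberg adjustment over 17272 genes and calls at an adjusted p under 0.05. SE is the log2 fold change over the square root of F, and intervals are 95%. Log2 CPM used a prior count of 2. Members, lists and alternatives were chosen with earlier results of these data known. Named genes are the 7 members, up to 3 genes per list, those lowest in adjusted p for light damage against control, and the 5 genes most correlated with Edn2 and Ednrb, leaving out predicted genes. Alternatives were DESeq2 size factors, no filter, DESeq2 1.42.0, the 2 groups alone, a replicate block, Y-linked counts or the anterior tissue split as a term, and leaving out libraries. Values within the anterior tissue split were chosen after seeing the data, and a cell with 1 library there borrows its spread from the others.

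The replicate numbers of the titles were checked for pairing by the correlation of deviations from group means. For light damage against control the same-numbered pairs had r = 0.116, 0.246 and 0.311 for replicates 1, 2 and 3. Light damage replicate 1 with control replicate 2 had r = 0.127, above the same-numbered pair of replicate 1. These r run along the same split as Y-linked counts, so whether the numbers mark pairs is not settled. The main fit held no pairing, and the replicate block was run only as an alternative. Library names of both light damage groups carry other numbers than the titles. For A74 against light damage (0.128, -0.0672 and 0.128) and A74 against control (0.0692, -0.0925 and 0.137) the numbers were not read as pairs. No 2 libraries of a group agreed within sampling noise, the chi-square per degree of freedom being at least 2.52. One marker gene is not reported here.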

Additional observations from a re-analysis of the deposited data

How the results depend on the processing

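Edn2 kept its direction and its call in all 17 alternatives for light damage against control (log2 fold change 2.63 to 2.76) and for A74 against light damage (-2.23 to -1.92). With the replicate block the 7 genes gave 1, 2 and 0 calls in the 3 comparisons in the order reported, with Edn2 at 2.68, -2.05 and 0.63, and no call of these genes changed. Of the listed genes named, the block ended only the call of Apln for light damage against control (edgeR adjusted p = 0.0527). For light damage against control, 2 genes were called with no filter and without light damage replicate 3 and A74 replicate 1 together, Ednrb being the second, and 1 to 2 with 1 library left out. Calls over all genes in that comparison were 2842 to 5395 with 1 library left out. For A74 against light damage, 1 gene (Edn2) was called with the 2 groups alone, with Y-linked counts as a term (745 genes in all) and with the anterior tissue split as a term, and 1 to 3 with 1 library left out (1731 to 4448 genes in all). For A74 against control, Edn2 was called with no filter (1 of the 7, 718 genes in all), by DESeq2 (1, 322 in all) and with the 2 groups alone (1, 551 in all), Edn2 and Edn3 without light damage replicate 3 and A74 replicate 1 together (2, 940 in all), none with Y-linked counts as a term (96 in all) and 0 to 1 with 1 library left out (21 to 426 in all, against 154 with every library). Directions turned for values that were not called: Edn3 with Y-linked counts as a term (0.90 against light damage and 0.32 against control), Ednrb with the same term (0.10 for A74 against control), Edn1 without A74 replicate 3 (for A74 against control, -0.12 to 0.40 with 1 library left out), and Apln for A74 against light damage without A74 replicate 1 (-0.11 to 0.14 with 1 library left out) or without it and light damage replicate 3 together (-0.14). The cause was not tested. Counts were low for Edn3 and Ednra, at 3 to 28 per library, and their standard errors were the largest of the 7. That of Edn3 was 0.66 for light damage against control and 0.34 with the anterior tissue split as a term on the same counts. Edn3 itself divides along that split, which was made after the data were seen, and what sets its standard error was not tested.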
